A study of Mus musculus with 6 samples.

Results

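The late-passage line EPC_Late was compared with the early line EPC from which it descends, over every probe that at least 1 of these lines held above background. A probe counted as a member when its detection p-value, the share of negative control beads at least as bright, was below 0.05 on both arrays of EPC or on both arrays of EPC_Late. Of 25697 probes on the array 2190 met this rule, under 1995 gene names. At the edge of the rule, a probe of Zbtb40 entered with a deciding detection p of 0.0489 and a probe of Ak3 stayed out with 0.0501.

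The study isolated cells from the lung of athymic nude mice as candidate endothelial progenitor cells, sorting for Flk-1 (the VEGF receptor 2), for a stem cell marker and against CD45, and grew them as lines in endothelial medium with serum. EPC was harvested at passage 3 to 6. EPC_acLDL, at the same passages, holds the EPC cells that took up fluorescent acetylated LDL and were sorted for it. EPC_Late is that sorted line at passage 16 to 20 (the culture methods give a slightly higher upper limit), so EPC_Late and EPC differ by the acLDL sort as well as by passage, and the 2 cannot be told apart in this comparison. Each line was hybridised to 2 arrays of 1-colour Illumina beads, labelled as replicates. The study speaks both of duplicate runs and of experiments done separately, without tying either to these arrays, so the p-values measure only the spread between these arrays, which may be technical. A single late line was measured.

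Prolonged culture exposes primary cells to repeated splitting, growth factors and selection, and lines kept in this way are known to change their growth control, cytoskeleton and stress responses. The protein families followed here have long-established roles. The Myc-Max network sets the transcription of growth genes, with Max as the shared partner and Mxi1 as a repressor that competes with Myc for it. SR and hnRNP proteins bind new transcripts and guide splicing, tRNA synthetases load amino acids for translation, and the interferon regulatory factors drive antigen presentation.

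All 4 arrays were alike in brightness and depth of detection. Median intensities were between 311.0 and 358.7, and 2177 to 2250 probes per array, 8.47% to 8.76%, were above background. Intensities correlated at r = 0.989 between the EPC arrays and r = 0.99 between the EPC_Late arrays across the probes tested, and the median SD between arrays of a line was 0.12 and 0.115 on the log2 scale. Among the members, 1750 were above background on all 4 arrays. A further 90 were so on both EPC_Late arrays and neither EPC array, 170 on both EPC_Late arrays and 1 EPC array, 61 on both EPC arrays and neither EPC_Late array, and 119 on both EPC arrays and 1 EPC_Late array. Members above background in 1 line only had to differ, and their adjusted p-values below are given as a description that supports nothing.

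The label of an endothelial cell was set against 33 probes of 23 endothelial genes. A single one, a probe of Kdr, the gene of Flk-1, was above background on the 4 arrays, and the other 32 were above background on none, with a lowest detection p of 0.0664. Kdr read 549 and 557 in EPC and 604 and 585 in EPC_Late, and after background correction and normalization the log2 difference was 0.01 ± 0.13 (SE, adjusted p = 0.97), with overlapping arrays on that scale. The 2 probes of Pecam1, the gene of CD31, had detection p-values from 0.189 to 0.924, and those of Ptprc, the gene of CD45, from 0.33 to 0.876. Summed over the 33 endothelial probes the intensity was 10123 to 11233 in EPC and 11090 to 11748 in EPC_Late. Apart from Kdr the endothelial probes were thus not above background in either line, which does not show that the transcripts were absent. Only 8.47% to 8.76% of all probes were above background on these arrays. The study reports CD31 staining, acLDL uptake and capillary-like structures on matrigel for its lines, which arrays do not measure. The lines are called here by their labels.

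Markers of other cell types were also few. Of 18 mesenchymal probes 4 were above background on the 4 arrays, of 10 smooth muscle and pericyte probes 3, of 11 epithelial probes 2, of 5 mesothelial probes 1, and of 21 hematopoietic probes 1. Both erythroid probes were below background throughout, and of 5 neural crest and glial probes 4 were. Summed mesenchymal intensity was 7699 to 8012 in EPC and 12712 to 12938 in EPC_Late, and Sparc, described below, made up most of that gap. Whether a change in the mixture of cells accompanied the other differences was not tested, and in a bulk sample fewer cells of a type and less RNA per cell cannot be told apart.

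Among the other markers that were members, Coro1a, an actin-binding protein of leukocytes, was lower. It read 560 and 535 in EPC and 402 and 476 in EPC_Late, with 1 EPC_Late array above background (-1.29 ± 0.26, adjusted p = 0.015), and did not pass without EPC array 1 or EPC_Late array 1 (up to 0.075). The other 3 Coro1a probes were below background on all 4 arrays. Acta2, the smooth muscle actin, differed by -0.18 ± 0.14 (adjusted p = 0.45), Des (desmin) by 0.29 ± 0.13 (0.19), Cspg4, the pericyte proteoglycan NG2, by 0.44 ± 0.32 (0.41), Upk3b, a mesothelial uroplakin, by 0.25 ± 0.13 (0.24) and Csf1r, the macrophage growth factor receptor, by 0.12 ± 0.15 (0.65). The epithelial genes Cdh1 (E-cadherin, -0.03 ± 0.20, adjusted p = 0.95) and Cldn7 (claudin 7, 0.18 ± 0.37, adjusted p = 0.80) had overlapping arrays. None of the 7 from Acta2 on passed the test.

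Of the genes tied to stem cells, Sox2 was the one that changed, on 1 of its 2 probes. This transcription factor of pluripotent and neural progenitor cells read 1098 and 1126 in EPC, 4076 and 3913 in EPC_acLDL, and 5641 and 5457 in EPC_Late. The log2 difference between EPC_Late and EPC was 2.67 ± 0.11 (SE, adjusted p = 6e-05), or 6.37-fold. The second Sox2 probe was below background on all 4 arrays (319 to 355). All differences here are EPC_Late minus EPC as the arrays are labelled. For Sox2 that direction is opposite to the one the study lists. The same holds below for the increases of Cadm1, Shisa3, Gm8909, Ybx3, Vamp2 and Gadd45a and for the decreases of Ctps, Srrt, Srsf1, Srsf2, Tyms and E2f1, but not for Serbp1. Pou5f1 (Oct4) stood at 528 and 507 in EPC against 583 and 627 in EPC_Late (0.30 ± 0.15, adjusted p = 0.23), and Prom1 (CD133) was above background only in EPC_Late (at least 1.14-fold, adjusted p = 0.089). The other 27 of 30 probes for stem cell genes were above background on none of the 4 arrays.

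Across all probes tested the lines differed widely and in both directions, with a balance that quantile normalization favours. With limma and Benjamini-Hochberg adjustment over the 2333 probes tested, 557 (23.9%) passed an adjusted p of 0.05, 254 (10.9%) higher and 303 (13%) lower in EPC_Late. All but 1 of these were members. Without normalization between arrays 291 were higher and 265 lower. Of the 1750 members above background on all 4 arrays, 432 (24.7%) passed, 190 (10.9%) higher and 242 (13.8%) lower, and their median log2 difference was -0.00. Among them 74 rose and 86 fell by at least 2-fold. With EPC array 1, EPC array 2, EPC_Late array 1 and EPC_Late array 2 left out in turn, 415, 402, 370 and 375 probes of the whole table passed.

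For probes dim on both arrays of 1 line only a lower bound of the fold can be given, against the faintest signal that counted as above background there. Here and below such a bound (at least so many fold) holds on the background-corrected and normalized scale, which widens the folds of dim probes, and is no bound for the intensities as deposited. Of the 90 members seen only in EPC_Late, and of the 61 seen only in EPC, 53 and 42 had an adjusted p under 0.05, counts that the member rule itself favours and from which nothing is read. Their bounds ran from 1.04-fold to 9.88-fold and from 1.06-fold to 7.62-fold. Only 13 of the former and 8 of the latter were bounded at 2-fold or more. Without background correction the fitted fold was smaller than the bound for 39 of the 53 and 37 of the 42, ran up to 3.97-fold and 2.86-fold, and reached 2-fold for 8 and 1.

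**Figure D1:**
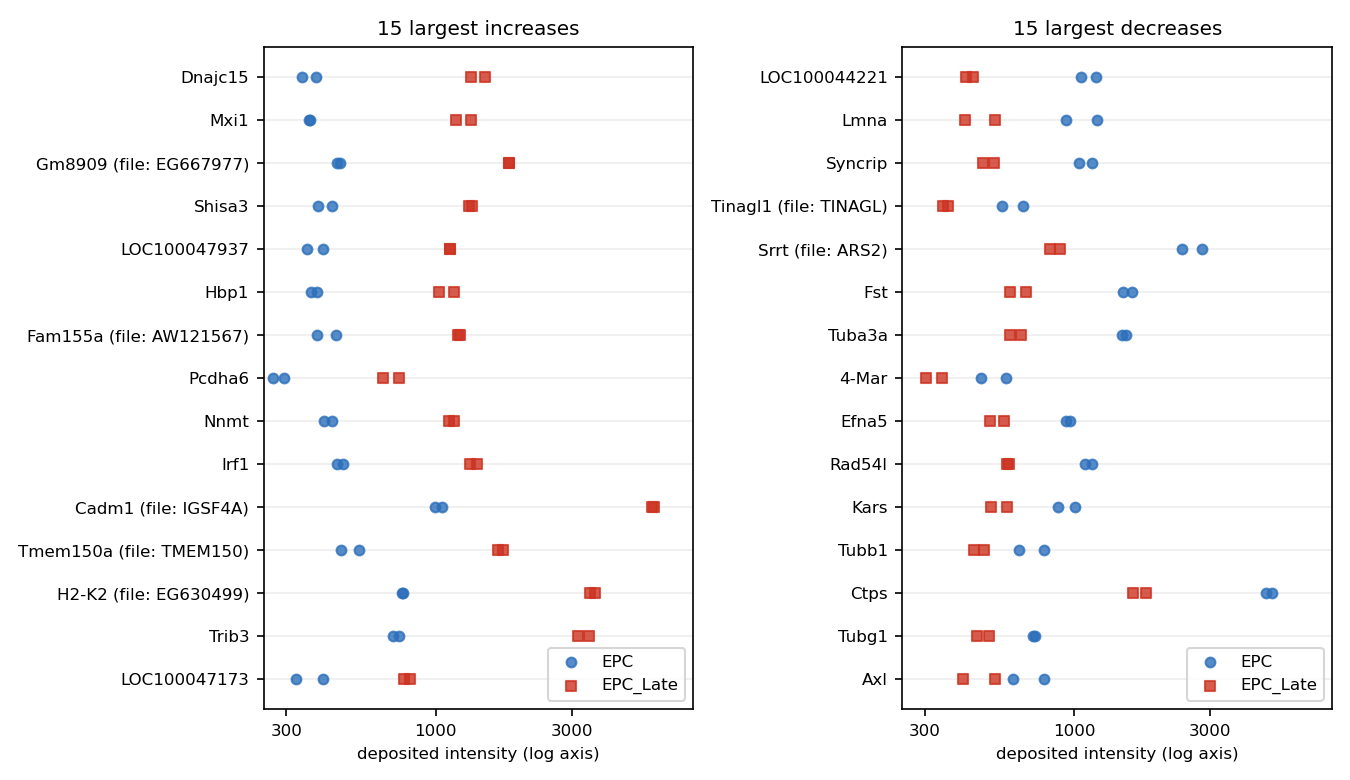
Deposited intensity on each array (log axis) of the 15 rises and 15 falls in EPC_Late with the largest fitted differences, taken from members that passed the test with no overlap between the lines. Circles are the 2 EPC arrays and squares the 2 EPC_Late arrays, and in every row the squares lie to one side of both circles, as the choice of these probes requires.

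Dnajc15, a J-domain co-chaperone of the inner mitochondrial membrane, was among the leading increases. It read 341 and 382 in EPC, below background on both arrays, and 1333 and 1489 in EPC_Late, at least 9.88-fold higher on the corrected scale and 3.97-fold without background correction (adjusted p = 5.2e-05). Mxi1, the Max-binding repressor, went from 364 and 361, again below background, to 1179 and 1328, at least 8.35-fold on the corrected scale and 3.49-fold without the correction (adjusted p = 7e-05). Both were members through EPC_Late alone. The size of such differences depends on how background is handled, and no order among the leading genes is read from them. The log2 difference of the brighter Sox2 lay between 2.22 and 2.73 under the other scalings. The direction of the 30 leading probes was the same under every scaling, which their choice by size favours.

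Other leading increases had also started below background. Hbp1, an HMG-box repressor of cell cycle genes, read 365 and 384 in EPC and 1028 and 1156 in EPC_Late (at least 6.61-fold). Shisa3, an inhibitor of Wnt and FGF receptor maturation, read 387 and 434 against 1338 and 1307 (at least 9.10-fold). Nnmt, which methylates nicotinamide, read 408 and 434 against 1117 and 1158 (at least 7.06-fold). The protocadherin Pcdha6, a neuronal adhesion protein of the clustered family, read 270 and 294 against 655 and 745, at least 3.07-fold. Adjusted p-values of these 4 were between 5.2e-05 and 0.00016. The predicted genes LOC100047937 (at least 6.91-fold) and LOC100047173 (at least 3.89-fold) behaved alike, and Fam155a, an auxiliary protein of the NALCN sodium channel listed as AW121567, was above background on 1 EPC array (383 and 447 against 1200 and 1220).

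Of the 15 increases 6 were above background in both lines. Cadm1, an immunoglobulin adhesion molecule listed under its older name Igsf4a, read 1057 and 997 in EPC and 5718 and 5828 in EPC_Late, or 7.49-fold (2.90 ± 0.12, adjusted p = 6e-05). Trib3, a pseudokinase induced when amino acids run short or proteins misfold, read 708 and 743 against 3150 and 3451 (2.77 ± 0.14, adjusted p = 0.00012). Tmem150a, a membrane protein of the phosphatidylinositol 4-kinase complex, read 468 and 537 against 1654 and 1724. The other 3, Irf1, H2-K2 and the class I-like Gm8909, are described below with the interferon and antigen presentation genes. Beyond the first 15 came among others Thra, the thyroid hormone receptor alpha, with 1 EPC array above background (2.74 ± 0.26, adjusted p = 0.00087), and Scx, the tendon transcription factor scleraxis (2.30 ± 0.13, adjusted p = 0.00017).

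Among the leading decreases the predicted gene LOC100044221 went from 1189 and 1054 in EPC to 418 and 442 in EPC_Late, where it was below background (at least 7.62-fold lower on the corrected scale, 2.86-fold without background correction, adjusted p = 6e-05). Tinagl1, a matrix protein of basement membranes, read 557 and 662 against 348 and 362 and was also lost to background (at least 2.70-fold on the corrected scale and 1.89-fold without the correction, adjusted p = 0.0013). A probe whose gene name the file stores as a date, 4-Mar, read 472 and 576 against 302 and 343 (at least 1.86-fold). Fst, follistatin, which binds and blocks activin, fell from 1594 and 1487 to 596 and 678 (-2.19 ± 0.18, adjusted p = 0.00053). Rad54l, a motor of homologous recombination, fell from 1094 and 1158 to 591 and 580 (-1.90 ± 0.12, adjusted p = 0.00022). Efna5, the membrane-bound ligand ephrin A5, fell from 938 and 963 to 509 and 566 (-1.92 ± 0.16, adjusted p = 0.00057).

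The receptor tyrosine kinase Axl closed the 15 decreases and was the least secure of them. It read 782 and 611 in EPC and 409 and 526 in EPC_Late, where 1 array was above background (-1.72 ± 0.38, adjusted p = 0.019). Without EPC array 1 or without EPC_Late array 1 the call was lost, with an adjusted p of up to 0.085. The other decreases of the 15, Lmna, Syncrip, Srrt, Ctps, Kars and the tubulins Tuba3a, Tubb1 and Tubg1, are taken up with their families.

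**Figure D2:**
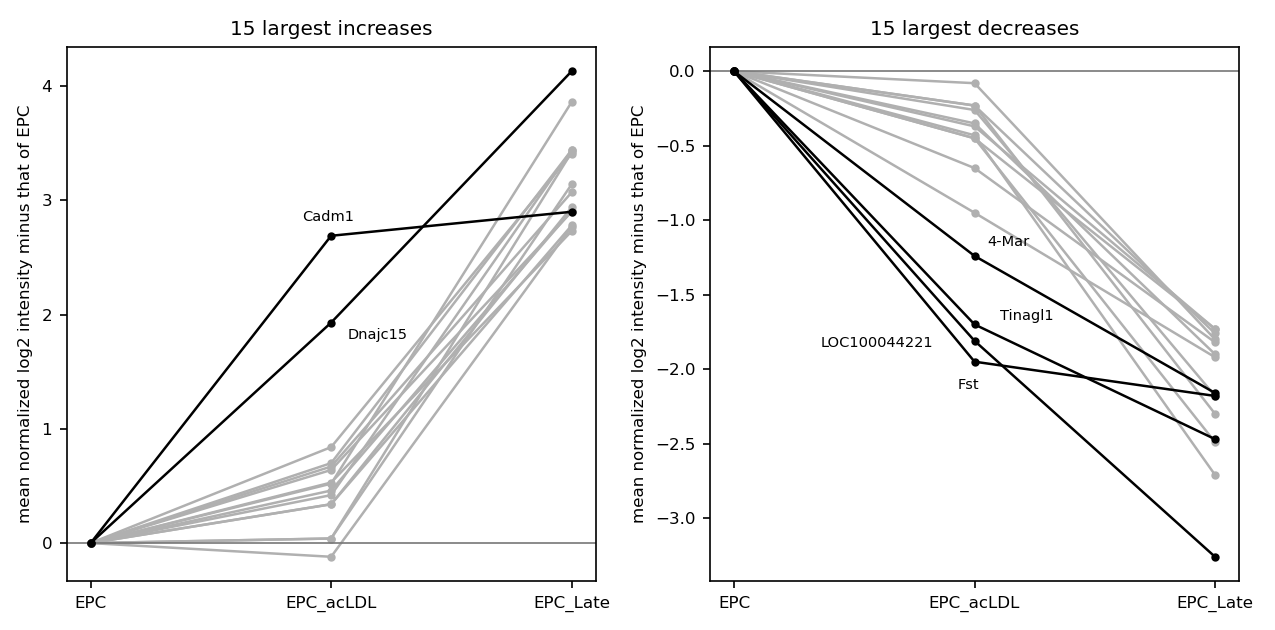
Mean normalized log2 intensity of the 15 leading increases and 15 leading decreases in EPC, EPC_acLDL and EPC_Late, each set to 0 in EPC (2 arrays a line). Most lines are steeper between EPC_acLDL and EPC_Late, and the probes drawn in black are named. Cadm1 and Fst lay near their EPC_Late level in EPC_acLDL.

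For these leading probes the sorted line at low passage was set beside EPC and EPC_Late. For 14 of the 15 leading increases the EPC_acLDL mean lay nearer to EPC than to EPC_Late. The exception was Cadm1, at 6041 and 5385 in EPC_acLDL. For 11 of the 15 leading decreases it also lay nearer to EPC, while Fst (651 and 762), Tinagl1 (444 and 400), LOC100044221 (567 and 633) and 4-Mar (358 and 463) lay nearer to EPC_Late. Mxi1 stayed at 392 and 456 in EPC_acLDL and Hbp1 at 451 and 490. These are positions of means of 2 arrays, given with no test. Dnajc15, Mxi1, Hbp1, Shisa3, Nnmt, Pcdha6, LOC100047937 and LOC100047173 were below background on both EPC arrays, so that end of their distance is unmeasured. The same holds for the EPC_Late end of Tinagl1, LOC100044221 and 4-Mar, and nothing is read from the positions of these probes. Fst was above background in both lines.

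**Figure D3:**
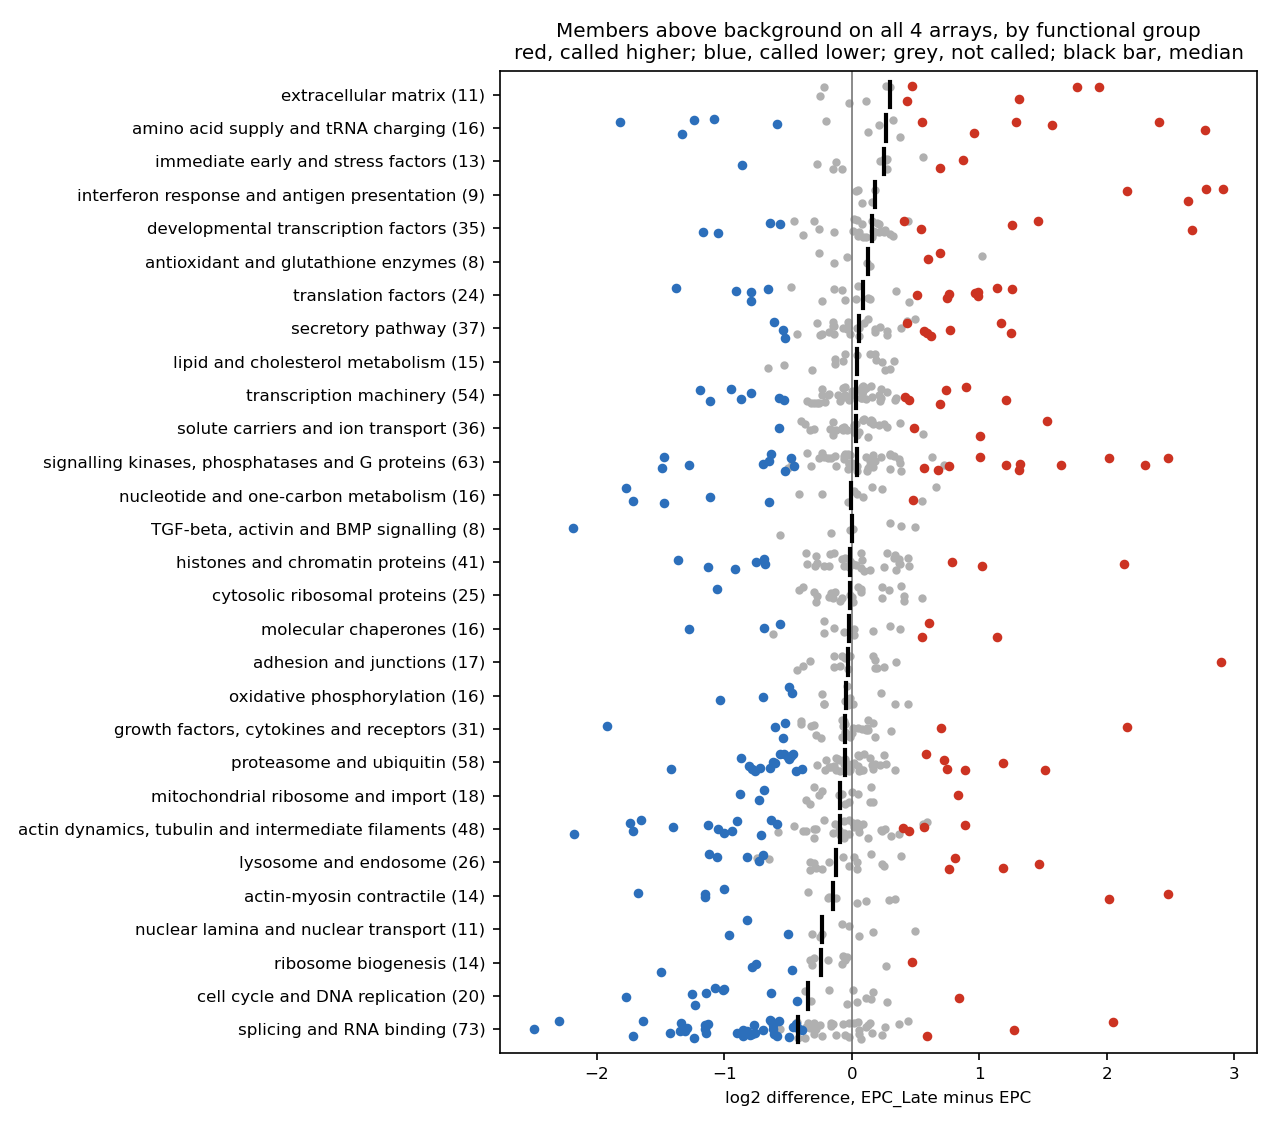
Log2 difference, EPC_Late minus EPC, of every member above background on all 4 arrays in the functional groups with at least 8 such probes (number in brackets). Red and blue points passed the test as higher and lower, grey points did not, and black bars are medians, from -0.42 for splicing and RNA binding to 0.30 for extracellular matrix.

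Sorted by known function, 946 members (43.2%) fell into 1 or more of 36 functional groups. Among the 1244 in no group 259 passed the test, 132 higher and 127 lower. The groups are described by how many of their members above background on all 4 arrays passed, to be read against 10.9% higher and 13.8% lower over all 1750 such members. Many probes of 1 gene or of near-identical genes share transcripts, so members of a group do not count as independent. Values are those of probes that were members, and of the 112 called genes named by rule 61 had a further probe above background on none of the 4 arrays.

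The group with the most decreases was splicing and RNA binding. Of its 73 members above background on all 4 arrays 36 (49.3%) were lower and 3 (4.11%) higher, and the median difference was -0.42, with 57 below 0. Under the other scalings the median ran from -0.46 to -0.32. With EPC array 1, EPC array 2, EPC_Late array 1 and EPC_Late array 2 left out in turn, 24, 27, 26 and 22 members passed as lower, beside 167, 169, 159 and 168 of all 1750.

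**Figure D4:**
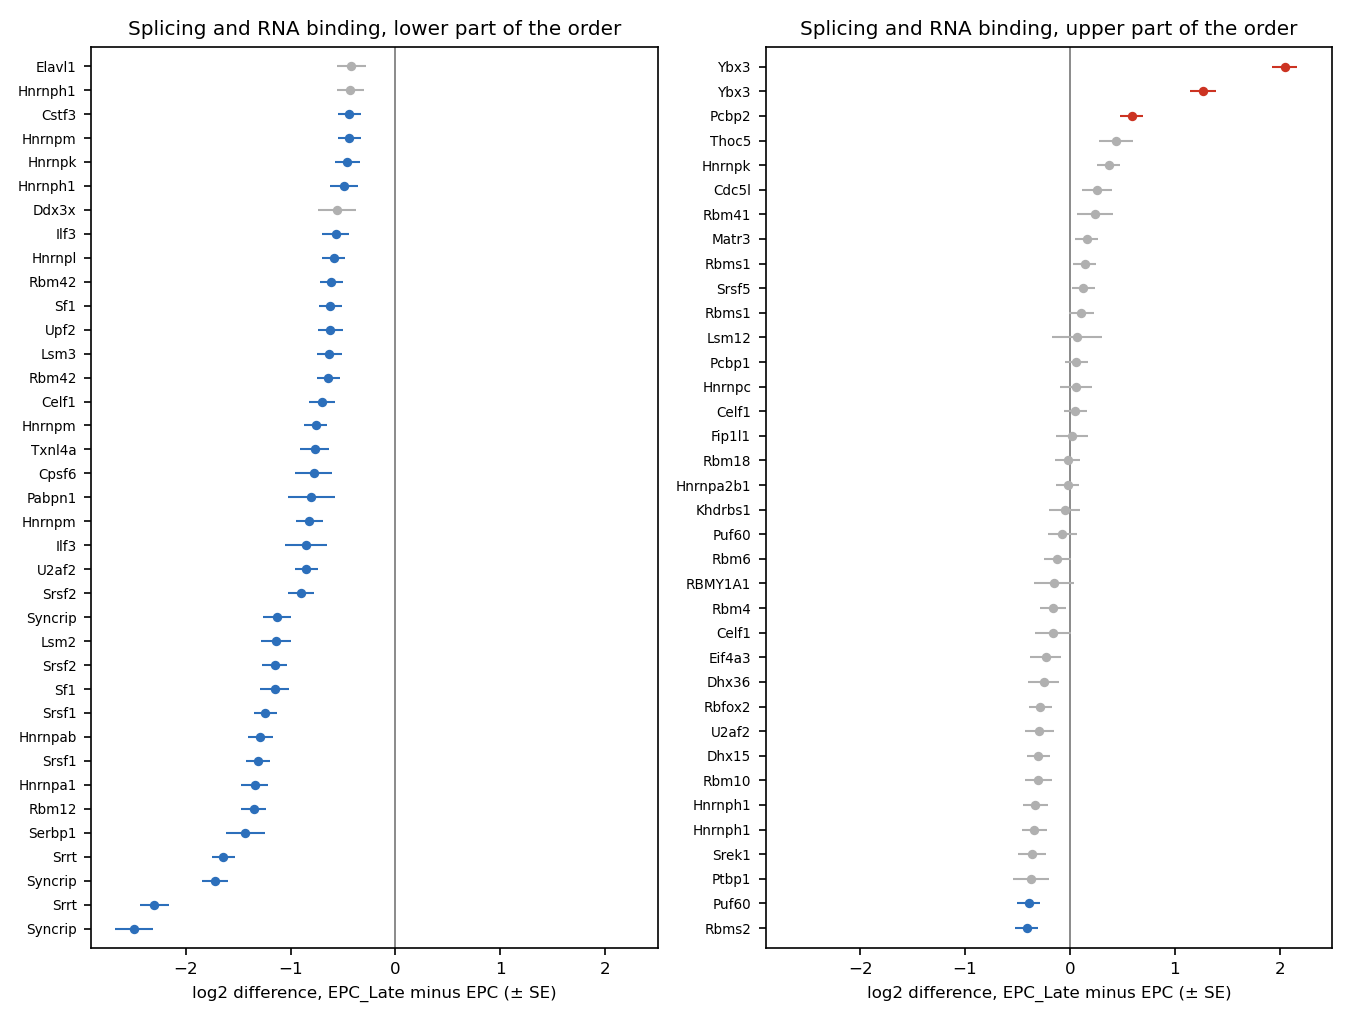
Log2 difference (± SE) of the 73 probes of splicing and RNA-binding proteins above background on all 4 arrays, ordered by size and drawn in 2 panels. Blue probes passed as lower in EPC_Late, red ones as higher and grey ones did not pass; the red points are Ybx3 (2 probes) and Pcbp2.

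Syncrip, also called hnRNP Q, had the largest decrease of this group on 1 probe and fell on all 3 of its probes. They went from 1036 and 1154 to 480 and 525, from 4309 and 3728 to 1496 and 1489, and from 564 and 590 to 453 and 496, with log2 differences of -2.49 ± 0.18, -1.72 ± 0.12 and -1.13 ± 0.13. Srrt (Ars2 in the file), which joins the nuclear cap-binding complex to RNA processing, fell on both probes above background, from 2792 and 2385 to 823 and 889 and from 5696 and 5785 to 2084 and 2158 (-2.30 ± 0.14 and -1.64 ± 0.11, adjusted p = 0.00021 and 0.00024). On no probe of these genes did the arrays of the 2 lines overlap.

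Of the SR proteins, which bind exonic enhancers, Srsf1 and Srsf2 were lower. Srsf1 read 29620 and 29574 in EPC and 11114 and 11582 in EPC_Late on its brighter probe (-1.24 ± 0.11), and its other probe fell by 1.31 on the log2 scale. Srsf2 fell by 1.15 and 0.90 on its 2 probes, while Srsf5 did not pass the test (0.13). Among the hnRNP proteins, which coat nascent transcripts, Hnrnpab went from 29118 and 32290 to 11262 and 11306 (-1.29 ± 0.12, adjusted p = 0.00079), Hnrnpa1 fell by 1.34 and 3 probes of Hnrnpm by 0.82, 0.76 and 0.44. Hnrnpa2b1 (-0.02) and Hnrnpc (0.06) did not pass, and for Hnrnpk 1 probe fell by 0.46 while the other stood at 0.37 (adjusted p = 0.065). The smaller decreases of Hnrnpk and of the third Hnrnpm probe did not pass with any array left out (up to 0.13). Core factors of splice site recognition included Sf1 (-1.15 and -0.62, both called) and U2af2 (-0.85 called, -0.29 not). Outside that step Serbp1, an mRNA-binding protein, was at -1.43 ± 0.19.

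The main exception was Ybx3, a cold shock domain protein that binds DNA and mRNA and is listed as Csda. Its probes rose from 433 and 472 to 898 and 944 and from 2733 and 2787 to 6868 and 6226 (2.05 ± 0.12 and 1.27 ± 0.12, adjusted p = 0.00021 and 0.00095). Thoc6, of the mRNA export complex, was above background only in EPC_Late and at least 1.2-fold higher (adjusted p = 0.0077). Ddx39b and U2af1l4, by contrast, were seen only in EPC, at least 1.95-fold and 1.48-fold lower in EPC_Late, the latter not passing without either EPC_Late array (up to 0.11). Pcbp2, an hnRNP that binds poly(C), rose by 0.59 and passed only without EPC array 2 among the fits with an array left out.

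Cell cycle and DNA replication genes also leaned downward. Of 20 members above background throughout 9 (45%) were lower and 1 (5%) higher, with a median of -0.35 (-0.34 to -0.24 under other scalings), and 7 or 8 remained lower by count when any one of the 4 arrays was left out. Ctps, which makes CTP for RNA and DNA, read 4930 and 4703 in EPC and 1612 and 1777 in EPC_Late (-1.77 ± 0.11, adjusted p = 0.00022). Tyms, thymidylate synthase, fell from 1530 and 1553 to 871 and 942 (-1.25 ± 0.12, adjusted p = 0.00097), and E2f1, the transcription factor of S phase entry, from 9435 and 8821 to 4549 and 4395 (-1.14 ± 0.11, adjusted p = 0.00095). Cdc45, a helicase subunit of the replication fork, fell by 1.07, the centromere protein Cenpp by 1.23 and Birc5, the chromosomal passenger survivin, from 785 and 774 to 616 and 582 (-1.01 ± 0.14, adjusted p = 0.0031). Members of the same machinery such as Cdk2 (-0.04), Cenpa (0.04) and Dut (0.01) did not pass. Cdc20, the activator of the anaphase-promoting complex, was above background only in EPC but missed the threshold (adjusted p = 0.076).

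Genes that brake the cycle gave fewer members. Btg1, an antiproliferative cofactor of mRNA decay, rose from 1624 and 1617 to 5141 and 5009 (1.83 ± 0.14, adjusted p = 0.00041), and its arrays were far apart. Cdkn2c, the kinase inhibitor p18, was at 562 and 565 in EPC and 599 and 615 in EPC_Late (0.02 ± 0.12, adjusted p = 0.93), Ei24 at -0.12 ± 0.13 (0.60) and Plk2 at -0.25 ± 0.11 (0.16), both p53 targets. The p53 target Bbc3 (Puma) had 1 probe at 0.13 ± 0.15 (0.60) and another seen only in EPC_Late (at least 1.29-fold, adjusted p = 0.0087). Gadd45a, a DNA damage and stress protein, was seen only in EPC_Late, at least 1.08-fold (adjusted p = 0.022). Both of these last calls were lost with an array left out, Bbc3 without EPC_Late array 2 (adjusted p = 0.05 at 2 digits) and Gadd45a without either EPC_Late array (up to 0.097). Cyclin-dependent kinase inhibitors other than Cdkn2c were not among the members.

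In the Myc-Max network 2 genes were members. Mxi1 was one through EPC_Late alone, so that it had to be higher there. Max, the one above background on all 4 arrays, went from 571 and 663 to 1049 and 932 (1.02 ± 0.18, adjusted p = 0.0092), a call lost without EPC_Late array 1 (adjusted p = 0.055). Myc itself was not a member. Enzymes of nucleotide and polyamine synthesis, several of which are textbook Myc targets, had 5 of 16 members lower (31.2%) and 1 higher (0 to 2 under other scalings), with a median of -0.00, and 4, 3, 4 and 4 lower with each array left out in the order given above. Cad, which starts pyrimidine synthesis, fell from 1939 and 1756 to 861 and 829 (-1.72 ± 0.12, adjusted p = 0.00027). The nucleoside diphosphate kinase Nme2 fell on both member probes, by 1.47 and 0.65, and Odc1, the first enzyme of polyamine synthesis, by 1.11 (adjusted p = 0.014). Odc1 did not pass without either EPC array (up to 0.07), and the smaller Nme2 change passed only without EPC array 1 among these fits. Ctps, described above, was the other decrease and Nudt2, a dinucleotide hydrolase, the increase (0.48 ± 0.13, adjusted p = 0.038). Mat2a and Impdh2 did not pass.

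**Figure D5:**
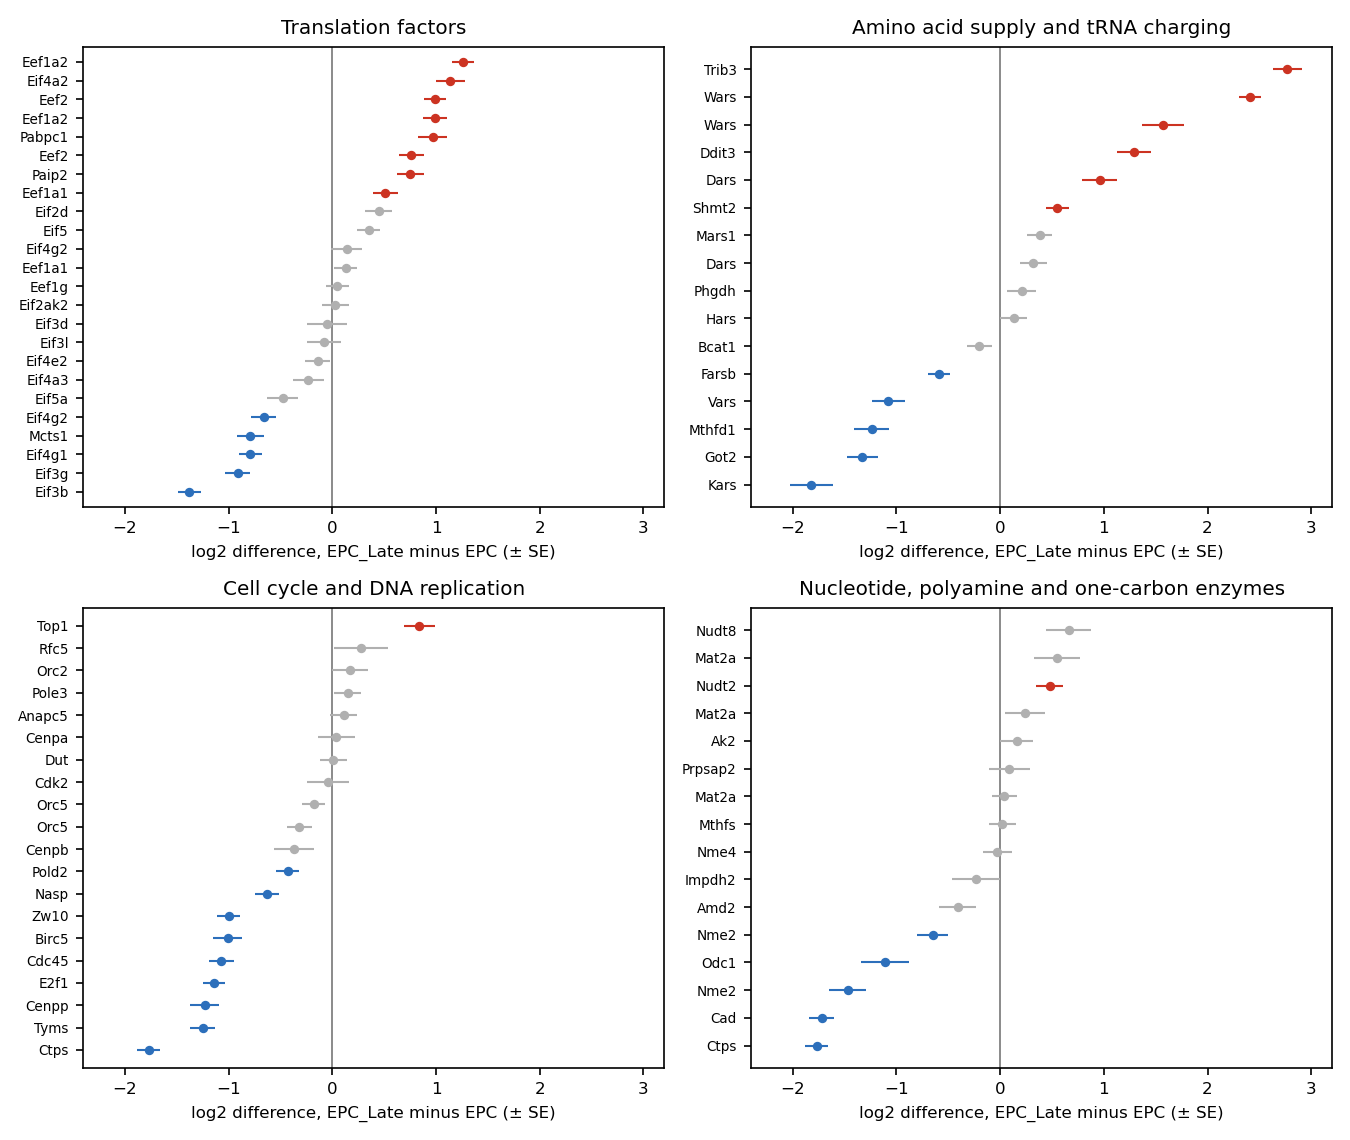
Log2 difference (± SE), EPC_Late minus EPC, for every member above background on all 4 arrays in 4 groups: translation factors, amino acid supply and tRNA charging, cell cycle and DNA replication, and enzymes of nucleotide, polyamine and one-carbon metabolism. Red and blue probes passed as higher and lower; the upper panels hold called probes on both sides of 0 and the lower panels mostly on the left.

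Amino acid supply and tRNA charging split in both directions. Of 16 members 6 (37.5%) were higher and 5 (31.2%) lower, with a median of 0.27 (0.15 to 0.35 under other scalings). Among tRNA synthetases Wars, which charges tryptophan, rose from 513 and 530 to 1359 and 1435 on 1 probe and from 489 and 562 to 943 and 1029 on the other (2.41 ± 0.11 and 1.57 ± 0.20, adjusted p = 8e-05 and 0.0027). Kars, which charges lysine, fell from 877 and 1006 to 510 and 583 (-1.82 ± 0.21, adjusted p = 0.0017), Vars (valine) by 1.08 and Farsb (phenylalanine) by 0.59. Dars (aspartate) rose by 0.96 on 1 probe and stood at 0.32 on the other, which did not pass. The transaminase Got2 fell from 738 and 675 to 496 and 536 (-1.33 ± 0.15, adjusted p = 0.0014) and the folate enzyme Mthfd1 from 1734 and 1851 to 925 and 1112 (-1.24 ± 0.17, adjusted p = 0.0028), while Shmt2, of serine metabolism, rose by 0.55. The calls of Farsb and Shmt2 were lost without EPC array 1, that of Farsb also without EPC_Late array 1, and those of Shmt2 and Dars without EPC_Late array 2 (adjusted p up to 0.071). Ddit3 (Chop), a transcription factor of the same stress response as Trib3, rose from 484 and 510 to 730 and 882 (1.29 ± 0.16, adjusted p = 0.0024). Without EPC_Late array 2, 4 members passed as higher.

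Translation factors changed in both directions. Of 24 members 8 (33.3%) were higher and 5 (20.8%) lower, with a median of 0.09 (0.01 to 0.12 under other scalings) and 6 to 8 higher and 4 or 5 lower with an array left out. Among elongation factors Eef1a2 rose from 1896 and 1825 to 4321 and 3992 (1.26 ± 0.11, adjusted p = 0.00078) and by 0.99 on a second probe, Eef2 rose by 0.99 and 0.76, and Eef1a1 by 0.51 on 1 of its 2 probes, which with Eef1a2 shares much sequence. The initiation helicase Eif4a2 rose from 16674 and 15503 to 30631 and 26474 (1.14 ± 0.14, adjusted p = 0.0023). Its paralogue Eif4a1 fell from 642 and 554 to 440 and 490, with 1 EPC_Late array above background (-1.28 ± 0.22, adjusted p = 0.0086, lost without EPC_Late array 1 at 0.056). Eif3b, a scaffold of the initiation factor 3 complex, fell from 3071 and 2863 to 1450 and 1369 (-1.38 ± 0.11, adjusted p = 0.00051), Eif3g by 0.91 and Eif4g1 by 0.79. For Eif4g2 1 probe fell by 0.66, a call lost without EPC_Late array 1 (0.056), and the other stood at 0.14. The Eef1a1 rise passed only without EPC_Late array 1 among these fits.

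The ribosome itself changed little. Of 25 probes for cytosolic ribosomal proteins above background throughout 1 was lower, a probe of Rpl23 that went from 951 and 1027 to 652 and 748 (-1.06 ± 0.16, adjusted p = 0.0049), while a second Rpl23 probe stood at -0.41. Their median was -0.01, or -0.07 to 0.01 under other scalings, where up to 5 passed as higher and up to 3 as lower. Ribosome assembly factors had 4 of 14 lower (28.6%) and 1 higher, median -0.25. Under other scalings 2 to 4 were lower and the median ran from -0.20 to -0.08. Mrto4, of the large subunit, fell from 1295 and 1280 to 665 and 741 (-1.50 ± 0.13, adjusted p = 0.00062), and Brix1, listed as Bxdc2, from 22512 and 22116 to 11202 and 11998 (-0.78 ± 0.11, adjusted p = 0.0036). The lower calls were 2, 2, 3 and 2 with each array left out in the same order. The group's one increase, Pwp2 (0.47 ± 0.12, adjusted p = 0.029), a nucleolar factor, did not pass in any of those fits.

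Of 58 proteasome and ubiquitin members 17 (29.3%) were lower and 6 (10.3%) higher, with a median of -0.06 that ran from -0.06 to 0.02 under other scalings, and 6, 6, 7 and 5 were lower with each array left out. Vcp, the segregase that extracts proteins for degradation, fell from 5597 and 5691 to 2194 and 2489 (-1.42 ± 0.11, adjusted p = 0.00053). Core particle subunits Psmb3 and Psmb6 fell by 0.87 and 0.81, and Psmd11, of the regulatory particle, was seen only in EPC (482 and 627 against 418 and 432, at least 2.11-fold lower, adjusted p = 0.0096), a call lost without either EPC_Late array (up to 0.06). The ubiquitin ligase Rnf41 rose on both member probes, from 490 and 462 to 794 and 803 and from 421 and 399 to 748 and 699 (1.52 ± 0.22 and 1.99 ± 0.22, adjusted p = 0.0037 and 0.0016). On the second of these 1 EPC array was above background.

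Of 16 chaperones 3 passed in each direction, median -0.02, and 1 to 3 were higher and 2 to 4 lower under other scalings. Apart from Dnajc15, the disulfide isomerase Pdia5 rose from 622 and 600 to 959 and 1094 (1.14 ± 0.14, adjusted p = 0.0019). Hspd1, the mitochondrial chaperonin, fell from 3901 and 3490 to 2524 and 2522 (-0.69 ± 0.12, adjusted p = 0.0072), and Tcp1, a subunit of the cytosolic chaperonin that folds actin and tubulin, from 560 and 706 to 467 and 509 (-1.28 ± 0.22, adjusted p = 0.0079, lost without EPC_Late array 1 at 0.053). With each array left out in turn 1, 1, 3 and 1 chaperones were higher and 2, 3, 1 and 3 lower.

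Mitochondrial genes showed small differences beside that of Dnajc15. Of 16 members of oxidative phosphorylation 4 (25%) were lower and none higher, median -0.04 (-0.21 to -0.04 under other scalings), falling to 1, 2, 1 and 2 with each array left out, and under other scalings up to 2 passed as higher. Ndufaf5, an assembly factor of complex I listed as 2310003L22Rik, fell from 704 and 789 to 568 and 582 (-1.03 ± 0.13, adjusted p = 0.0023). Of 18 members of the mitochondrial ribosome and import 3 were lower and 1 higher, median -0.09, and under other scalings 3 to 6 were lower and the median ran from -0.08 to 0.02. The ribosomal protein Mrps11 fell by 0.73 ± 0.13 (adjusted p = 0.0088) and the citrate carrier Slc25a1 rose from 2610 and 2576 to 4483 and 4534 (0.83 ± 0.11, adjusted p = 0.0025). The fatty acid oxidation enzyme Acaa2 was unchanged in level within error (0.02 ± 0.17, adjusted p = 0.96, overlapping arrays), and none of 4 glycolytic probes above background throughout passed.

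The cytoskeleton gave some of the larger decreases. Of 48 members for actin dynamics, tubulin and intermediate filaments 13 (27.1%) were lower and 4 (8.33%) higher, with a median of -0.09. Under other scalings 11 to 15 were lower and 3 to 8 higher, with medians of -0.11 to -0.04, and 10 to 13 were lower with an array left out while the higher calls fell to 1, 2, 1 and 1. Tubulin probes are near-identical between genes and may share signal. Tuba3a went from 1519 and 1467 to 598 and 652 (-2.18 ± 0.13, adjusted p = 0.00017), Tubb1 from 782 and 640 to 446 and 483 with 1 EPC_Late array above background (-1.80 ± 0.23, adjusted p = 0.0023), and Tubb4b, listed as Tubb2c, from 16086 and 18052 to 5608 and 5137 (-1.65 ± 0.13, adjusted p = 0.00053). Tubg1, which nucleates microtubules, fell from 718 and 728 to 457 and 504 (-1.74 ± 0.25, adjusted p = 0.0037). Tubb5 (-0.10) did not pass, and the probe of Tuba1b was too near the highest signal of the arrays to be read.

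Probes of 1 gene did not always move together here. For Tubb2b a probe at 22685 and 20258 in EPC read 8190 and 7430 in EPC_Late (-1.40 ± 0.13, adjusted p = 0.00078), while another rose from 23754 and 24265 to 28917 and 28488 (0.45 ± 0.12, adjusted p = 0.035), a rise that did not pass with any array left out (up to 0.16). Actb, beta-actin, fell 2-fold and 1.92-fold on its dimmer probes. Its brightest probe read 70616 and 70551 in EPC and 68151 and 69914 in EPC_Late, close to the highest signal of any probe on these arrays (70914 to 71993), and no difference can be read from it. Pfn2, an actin monomer binding protein, rose from 21816 and 21500 to 31753 and 33402 (0.89 ± 0.12, adjusted p = 0.003) on 1 probe and not on the other 2 (0.56 and -0.28). Over all members 173 genes had several probes and 99 of them at least 1 call. In 37 of the 99 every probe passed in the same direction, in 60 some did not pass, and in Tubb2b and Jkamp 2 probes passed in opposite directions. For Jkamp these were 1.02 and -0.42, and the latter did not pass with any array left out (up to 0.19).

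Contractile genes had 4 of 14 lower (28.6%) and 2 higher, median -0.15 (-0.14 to -0.06 under other scalings), the same counts with any array left out. Tpm2, the smooth muscle tropomyosin, fell from 803 and 908 to 525 and 540 (-1.68 ± 0.22, adjusted p = 0.0027), and had read 435 and 541 in EPC_acLDL. Mylk, the kinase of the myosin light chain, fell from 1517 and 1572 to 904 and 983 on 1 probe (-1.15 ± 0.12) and was lost to background on the other (at least 2.31-fold, adjusted p = 0.0023). The actin crosslinkers Actn1 and Actn4 fell 2-fold and 2.22-fold, with a second Actn4 probe at -0.19. Both increases were probes of Ppp1cb, the catalytic subunit of myosin phosphatase, which rose from 479 and 501 to 1291 and 1271 and from 447 and 490 to 884 and 1071 (2.48 ± 0.11 and 2.02 ± 0.18, adjusted p = 6.4e-05 and 0.00072).

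At the nuclear envelope Lmna, the gene of lamins A and C, fell on both of its member probes. The dimmer went from 1197 and 934 to 414 and 528, where 1 array was above background (-2.71 ± 0.32, adjusted p = 0.0019), and the brighter from 13000 and 13040 to 6704 and 6436 (-0.96 ± 0.11, adjusted p = 0.0016). Of the 11 members for lamina and nuclear transport above background throughout 3 (27.3%) were lower and none higher, median -0.23 (-0.20 to -0.06 under other scalings), and 1, 1, 2 and 2 were lower with each array left out (1 was higher without EPC array 2).

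Chromatin genes were called at about the rate of all members. Of 41, 3 were higher and 6 lower, median -0.01, and under other scalings up to 11 were higher. Hdac5, a class II histone deacetylase, rose from 454 and 464 to 1019 and 947 (2.14 ± 0.14, adjusted p = 0.00022). Histone probes went both ways, H2ac20 (Hist2h2ac) from 5922 and 5040 to 10988 and 10295 (1.02 ± 0.13, adjusted p = 0.0027) and H2bc15 (Hist1h2bn) from 697 and 822 to 492 and 584 (-1.36 ± 0.23, adjusted p = 0.0076), and members of these clusters are nearly identical in sequence. Hmga1, an architectural protein of proliferating cells, was lost to background on 1 probe (at least 1.82-fold, adjusted p = 0.0067) and stood at 0.03 on the other.

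Interferon response and antigen presentation genes had 4 of 9 higher (44.4%) and none lower, median 0.18 (0.06 to 0.29 under other scalings), and the 4 were higher by count with any array left out. They came from 3 genes. Irf1, the transcription factor that drives many interferon-induced genes, rose from 474 and 452 to 1400 and 1322 and from 533 and 486 to 1120 and 1242 (2.91 ± 0.18 and 2.16 ± 0.21, adjusted p = 0.00022 and 0.00096). Ifitm2, a membrane protein that restricts virus entry, rose from 1032 and 1073 to 5257 and 4781, or 6.23-fold (2.64 ± 0.12, adjusted p = 7e-05). H2-K2, listed as EG630499, rose from 763 and 767 to 3484 and 3618 (2.78 ± 0.17, adjusted p = 0.00022). Outside the group by name, the class I-like Gm8909 (EG667977) rose from 452 and 462 to 1806 and 1814 (3.44 ± 0.12, adjusted p = 5.2e-05). Class I genes share long stretches of sequence, so which of them these 2 probes read is uncertain. Ifi35 was seen only in EPC_Late (364 and 393 against 679 and 728, at least 3.12-fold, adjusted p = 0.00045). In contrast Irf2 (0.05), Eif2ak2 (0.03) and Tapbp (0.08) did not pass, nor did Psmb8, seen only in EPC_Late (at least 1.14-fold).

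RefSeq promoters of the GRCm38.p6 build, from 250 bases before to 50 bases after each gene's start, were searched for sites that regulators of these groups are known to bind. They are shown for 3 of the increased genes that held a match, Irf1 and Ifitm2 of the interferon genes and Trib3 of the amino acid response. Capitals mark the motif on either strand.
Irf1, chr11:53769764-53770063, plus strand: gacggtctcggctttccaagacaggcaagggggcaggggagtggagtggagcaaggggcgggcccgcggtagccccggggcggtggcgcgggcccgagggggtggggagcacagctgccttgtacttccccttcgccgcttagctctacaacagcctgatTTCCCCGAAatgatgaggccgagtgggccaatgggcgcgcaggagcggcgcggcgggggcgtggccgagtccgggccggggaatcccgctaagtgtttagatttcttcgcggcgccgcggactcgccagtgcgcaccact
Ifitm2, chr7:140955912-140956211, minus strand: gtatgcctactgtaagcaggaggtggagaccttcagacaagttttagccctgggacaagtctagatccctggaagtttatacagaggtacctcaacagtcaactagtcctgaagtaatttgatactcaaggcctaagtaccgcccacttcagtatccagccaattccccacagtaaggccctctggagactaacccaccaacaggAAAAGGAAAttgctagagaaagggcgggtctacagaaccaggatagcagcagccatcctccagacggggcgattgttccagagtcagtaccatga
Trib3, chr2:152344011-152344310, minus strand: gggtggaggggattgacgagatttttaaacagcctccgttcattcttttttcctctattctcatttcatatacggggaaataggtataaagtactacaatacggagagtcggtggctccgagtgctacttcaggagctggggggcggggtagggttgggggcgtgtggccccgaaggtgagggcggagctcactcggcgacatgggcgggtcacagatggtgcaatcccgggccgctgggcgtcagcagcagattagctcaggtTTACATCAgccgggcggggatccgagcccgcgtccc

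The first of the 2 listed Irf1 promoters holds the letters of a gamma-activated site, TTCNNNGAA, 90 bases before the start, and the second holds none. The Ifitm2 promoter holds those searched for as a core of the interferon-stimulated response element, TTTCNNTTT, 45 bases before the start, and that of Trib3 those of the C/EBP-ATF response element, TGATGNAA, 14 bases after it. Matches of this kind are common and are given as descriptions. Among members called higher, 2 of 4 interferon promoters held TTCNNNGAA and 1 of 4 held TTTCNNTTT. TGATGNAA was in 1 of 4 promoters of amino acid members called higher. Of 32851 promoters in all 8.3% held TTCNNNGAA, 10.6% TTTCNNTTT and 3.97% TGATGNAA on either strand, and among the promoters of genes called higher the shares were 7.76%, 10.8% and 2.59%. The E-box CACGTG that Myc, Max and Mxi1 are known to bind was in 7.15% of all promoters, in 9.74% of those of members, and in 9.91%, 11.2% and 9.47% of those of members called higher, called lower and not called. The E2F letters TTTNGCGC were in 1.38% of all and in 1.72%, 2.97% and 2.35% of the same 3 sets, and in none of the 13 promoters of cell cycle members called lower. Among promoters of members called lower, the E-box was in 1 of 30 for splicing and 1 of 13 for cell cycle. It was in 1 of 4 for amino acid supply, 0 of 6 for nucleotide enzymes and 0 of 4 for ribosome assembly. Of the 1995 member genes 1519 matched a promoter.

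In the matrix group genes were higher where they changed. Tinagl1, a matrix protein that the group does not hold, was lower as described above. Of 11 members 5 (45.5%) were higher and none lower, median 0.30, and under other scalings 3 to 5 were higher and the median ran from 0.10 to 0.42, with 3 higher by count whichever array was left out. Sparc, a collagen-binding matricellular protein, rose from 1949 and 1702 to 6440 and 6123 (1.94 ± 0.12, adjusted p = 0.00022), having read 3086 and 2870 in EPC_acLDL. A second Sparc probe was below background on all 4 arrays (317 to 394). Lamb2, the laminin beta 2 chain, rose from 1429 and 1392 to 4093 and 4035 (1.77 ± 0.12, adjusted p = 0.00024), and Serpine2, a protease inhibitor, from 526 and 563 to 870 and 1000 (1.31 ± 0.14, adjusted p = 0.0012). Col1a2, a chain of type I collagen, was at 432 and 456 against 522 and 531 (0.43 ± 0.12, adjusted p = 0.047) and did not pass with any array left out (up to 0.16).

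Of the other mesenchymal markers Col1a2 and a probe of Prrx1 were higher and Twist1 lower, all with calls that depended on single arrays. Twist1, a transcription factor of mesenchymal cells, fell from 598 and 577 to 515 and 550 (-0.64 ± 0.13, adjusted p = 0.015), a call lost without EPC array 1 or EPC_Late array 1 (up to 0.082). The homeobox gene Prrx1 had a probe seen only in EPC_Late (at least 1.41-fold, adjusted p = 0.029, not passing without either EPC array or without EPC_Late array 2) and another at 0.44 ± 0.18 (0.15). Vim, Pdgfra and Thy1 were below background on every array.

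Adhesion genes were mostly unmoved: apart from Cadm1, none of the other 16 members above background throughout passed, and the median of the 17 was -0.03. Under other scalings 1 or 2 were higher and up to 1 lower. In the lipid and cholesterol group none of 15 passed in either direction, median 0.04, including the reductase Tecr (1370 and 1296 against 1451 and 1511, 0.19 ± 0.18, adjusted p = 0.53), the lipoprotein receptor gene Lrp8 and Insig1. Under other scalings up to 1 passed as higher and up to 2 as lower, and without EPC_Late array 2 there was 1 lower. The antioxidant group had 2 of 8 higher (3 under other scalings), Prdx2 (0.69 ± 0.12, adjusted p = 0.0094) and Akr1a1 (0.60 ± 0.12, adjusted p = 0.013), and Blvrb read 630 and 763 against 958 and 1325 without passing (adjusted p = 0.054). Prdx2 did not pass without EPC array 2 or EPC_Late array 2, and Akr1a1 without either EPC array or EPC_Late array 1. The calcium-binding S100a11 was lower (-0.52 ± 0.13, adjusted p = 0.032) and did not pass with any array left out.

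Among secreted factors and receptors 4 of 31 members were lower and 2 higher (1 or 2 under other scalings), median -0.05. Igfbp2, which binds insulin-like growth factors, rose from 468 and 537 to 1188 and 1121 (2.16 ± 0.17, adjusted p = 0.00046). The semaphorin Sema7a was seen only in EPC (467 and 450 against 302 and 304, at least 1.25-fold), and Sema3f rose by 0.70 ± 0.13 (adjusted p = 0.011), a call lost without EPC array 2 or EPC_Late array 2. Lower calls were 2, 1, 1 and 1 and higher calls 2, 1, 2 and 1 with each array left out, Efna5 passing in all of these fits. The TGF-beta, activin and BMP group gave 1 lower of 8, Fst itself, and none higher (2 lower without EPC array 1). Bmpr1a, a BMP receptor, was seen only in EPC_Late (at least 1.26-fold, adjusted p = 0.026) and passed only without EPC array 1. Tgfb1, at 433 and 383 against 502 and 599, did not pass (adjusted p = 0.077).

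Signalling enzymes had 11 of 63 higher (17.5%) and 9 lower (14.3%), median 0.04, and under other scalings 9 to 17 were higher and 8 to 12 lower. Ptprd, a receptor tyrosine phosphatase, rose from 428 and 451 to 931 and 999 (2.30 ± 0.11, adjusted p = 8e-05), and Pik3r1, the regulatory subunit of phosphatidylinositol 3-kinase, by 1.21 ± 0.15 (adjusted p = 0.0022). The kinase Map4k4 fell from 822 and 905 to 518 and 611 (-1.49 ± 0.20, adjusted p = 0.0028), and Hras was seen only in EPC (at least 1.43-fold, adjusted p = 0.0028). The lower calls were 4, 3, 2 and 4 with each array left out. Of 13 immediate early and stress factors 2 were higher (1, 2, 1 and 1 with each array left out) and 1 lower. Klf13 rose from 960 and 928 to 1546 and 1505 (0.87 ± 0.13, adjusted p = 0.0048) and the kinase Sgk1 fell from 7509 and 8095 to 4825 and 4452 (-0.86 ± 0.13, adjusted p = 0.0041). Egr1, the serum-induced zinc finger factor, was lost to background (438 and 502 against 331 and 374, at least 1.37-fold, adjusted p = 0.0012). Klf10, at 0.69 ± 0.14 (adjusted p = 0.014), passed only without EPC array 2.

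Developmental transcription factors, Sox2 among them, moved in both directions, 5 of 35 higher and 4 lower, median 0.16, and under other scalings 3 to 6 were lower and the median ran from 0.06 to 0.25. Meis1, a homeobox cofactor of Hox proteins, rose from 468 and 473 to 694 and 864 (1.46 ± 0.23, adjusted p = 0.0059) and Foxp1 by 1.26 ± 0.17 (adjusted p = 0.0028). Hoxb5, a homeobox factor of axial patterning, was lost to background (497 and 521 against 408 and 425, at least 1.75-fold, adjusted p = 0.0027). With each array left out 4, 3, 4 and 3 were higher and 2, 3, 2 and 4 lower. In the transcription machinery 6 of 54 were higher (4 to 7 under other scalings) and 7 lower (6 to 10), median 0.04, among them Cited2, a coactivator that restrains hypoxia signalling (1.21 ± 0.17, adjusted p = 0.0038), and both member probes of Zfp326 (-1.19 ± 0.11 and -1.11 ± 0.11, adjusted p = 0.00083 and 0.0011). The counts were 3, 3, 2 and 3 higher and 5, 5, 3 and 4 lower with each array left out. Med30, a Mediator subunit (0.90 ± 0.17, adjusted p = 0.012), passed only without EPC array 1.

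Vesicle and lysosome genes gave moderate changes. Of 37 secretory pathway members 7 (18.9%) were higher and 3 (8.11%) lower, median 0.06, or 2 to 5 lower under other scalings, with 4, 5, 2 and 4 higher and 0, 1, 1 and 0 lower when each array was left out. Golga7, a Golgi protein of the Ras palmitoylation complex, rose from 912 and 993 to 1954 and 1855 (1.25 ± 0.13, adjusted p = 0.0012), and Sec22a, a vesicle trafficking protein, was seen only in EPC_Late (at least 2.10-fold, adjusted p = 0.0022). Of 26 lysosome and endosome members 4 were higher and 5 lower, median -0.13, and under other scalings 6 to 8 were lower and the median ran from -0.17 to -0.07. The vesicle SNARE Vamp2 rose from 3800 and 3591 to 10026 and 9327 (1.47 ± 0.11, adjusted p = 0.00035) and the protease Ctsa from 808 and 811 to 1543 and 1390 (1.19 ± 0.12, adjusted p = 0.0011). Atp6v0d1, of the proton pump, fell from 1421 and 1455 to 972 and 799 (-1.12 ± 0.18, adjusted p = 0.0063) and Vps33b, of endosome fusion, from 608 and 697 to 536 and 509 (-1.06 ± 0.17, adjusted p = 0.0063).

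Membrane transporters had 3 of 36 higher and 1 lower, median 0.04, or up to 4 in each direction under other scalings, or 2, 3, 2 and 2 higher and 1, 0, 0 and 1 lower with each array left out. Slc38a2, a neutral amino acid carrier, rose from 540 and 536 to 1023 and 986 on 1 probe (1.53 ± 0.13, adjusted p = 0.00069) but not on its other 2 (-0.07 and 0.02). The nucleotide sugar carrier Slc35b3 rose from 500 and 544 to 739 and 795 (1.01 ± 0.12, adjusted p = 0.0019). Of the apoptosis regulators Bcl2l11 (Bim), which triggers cell death, rose from 438 and 418, with 1 EPC array above background, to 723 and 663 (1.63 ± 0.21, adjusted p = 0.0026), and of 7 members above background throughout Birc5 alone passed.

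Of the smaller calls named by the same rule, several did not hold up when 1 array was left out. Rab15 (-0.54), Kcnc4 (seen only in EPC, at least 1.63-fold lower), Usp29 (-0.49) and Nudt2 (0.48) did not pass in any of the 4 fits, with adjusted p-values of up to 0.17. Rpl38 (seen only in EPC, at least 1.31-fold lower) did not pass without EPC array 2 or EPC_Late array 2, nor Rab34 (-0.61) without EPC array 1 or EPC_Late array 2. Etfa (-0.70) and Mrpl42 (-0.88) did not pass without EPC array 1 or EPC_Late array 1, nor Slc30a1 (-0.57) without EPC array 2 or EPC_Late array 1. Hk1 (-0.87) passed only without EPC_Late array 2, Dctn2 (0.57) only without EPC array 2, and Top1 (0.84) failed only without EPC_Late array 1.

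By position in the genome, medians of the members above background throughout ran from -0.07 on chromosome 15 to 0.13 on chromosome 12 over the 20 chromosomes with such probes. Higher calls made up from 4.24% of these members on chromosome 5 to 19.3% on chromosome 15, and lower calls from 5.71% on chromosome X to 21.1% on chromosome 11. These are descriptions with no test.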

How the data were processed

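The values were deposited by the authors as non-normalized bead intensity, 1 average signal per probe and array, with a detection p-value per probe, both summarized in BeadStudio, whose local background correction was applied by default, with no normalization between arrays. Gene names were updated through RefSeq symbols (20736 probes) and synonyms (3841), and 1120 probes kept the name in the file. In R 4.3.3 with limma 3.58.1, background was fitted from the detection p-values (neqc, offset 16), followed by quantile normalization and log2. The fit (lmFit and eBayes) took all 6 arrays, no covariates, and the 2333 probes that at least 1 of the 3 lines showed above background in duplicate (detection p under 0.05). P-values were adjusted by Benjamini-Hochberg and called at 0.05. The depth of a bead array is not a count, and its precision is limited by the 2 arrays per line. Same-numbered arrays deviated with a correlation of 0.0211, so numbers were not taken as pairs.

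Functional groups were built from gene name patterns and described by counts and medians, without tests, and 11 names that matched a pattern by accident were taken out after values were seen. The members, lists and groups were chosen with earlier results of these data known. Named are the 15 largest increases and decreases among called members whose arrays do not overlap, the 2 largest called changes each way per group or, where none passed, its brightest member, all markers, cell cycle inhibitors and Myc-Max genes that are members, and Kdr, Pecam1, Ptprc and Sox2. Further genes were added after their values were seen. Lower bounds compare the mean of the brighter line with, per dim array, the higher of the probe's own signal and the faintest signal above background. The fit was tested on simulated data. Alternatives changed background, scaling, filters, the variance model, the samples in the fit, the array left out and the test. A gene that the naming rule picked is not reported here.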

Additional observations from a re-analysis of the deposited data

How the results depend on the processing

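The number of probes called, 557, stayed within 1.5 times for another background offset (639), uncorrected background (681), percentile scaling at the 75th (532), no normalization between arrays (556), that scaling with a floor (523), no filter (492), detection p below 0.01 (582), all 4 arrays above background (480), limma-trend (693) and a fit of the 4 arrays alone (467). With the replicate number as a replicate block 547 were called. That block ended the calls of S100a11 (adjusted p = 0.051), Rab15 (0.058) and Col1a2 (0.058) among the named probes and no other. With 1 array left out the number ran from 370 to 415. Requiring 2-fold in addition left 232. The methods' t-test called 585 unadjusted and 15 after adjustment. Without normalization between arrays 52.3% of calls were higher, against 45.6%, and the median difference was 0.08. Of the named probes 117 of 134 passed as reported, a share that the naming rule sets by picking called probes. The 5 probes whose sign turned had not passed. With 1 array left out, Acaa2 ran from -0.17 (without EPC_Late array 2) to 0.21 and was -0.05 without EPC array 2, Cdkn2c from -0.05 (without EPC array 2) to 0.09, Kdr from -0.10 (without EPC_Late array 1) to 0.12 and was -0.05 without EPC array 2, Cdh1 from -0.20 to 0.14 (without EPC array 1) and Cldn7 from -0.38 (without EPC_Late array 1) to 0.73. Cdh1 was also 0.01 with percentile scaling, with and without the floor, and 0.09 without normalization. No called named probe changed sign in these settings. The 2 arrays per line and the signal over background limit what dim probes can show.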
